A study of Mus musculus with 7 samples.

Results

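The genes described here are the 5 mouse perilipins (Plin1, Plin2, Plin3, Plin4 and Plin5), the 3 CIDE family genes (Cidea, Cideb and Cidec) and Hilpda, 9 of the 52230 genes with a value in the libraries. They were listed by name, as the coat and fusion proteins of the lipid droplet together with a hypoxia-inducible droplet protein, with earlier results of these libraries known. Reads sufficed to test 7 of the 9, among 19233 genes tested in all. Cidea and Cidec fell below the count filter and are given as read numbers.

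The tissue was the residual ovary of PRKO mice, a line carrying the Pgrtm1Bwo null allele of the progesterone receptor (PGR), collected 8 h post-hCG. Females of 21 to 25 days by the design text, or 21 to 27 days by the protocol, had been primed with 5 IU PMSG for 44 h and then given 5 IU hCG, the standard stand-in for the ovulatory LH surge. Ovaries were punctured to release most granulosa cells (GC), and what remained, called ovarian stroma, held theca, stromal, vascular and immune cells as well as left-over GC and oocytes. There were 4 libraries from PGR +/+ littermates (WT1 to WT4) and 3 from PGR -/- females (KO2, KO3 and KO4), each a pool of 3 mice, and PGR was absent from the whole animal rather than from one cell type. Libraries held from 47372446 to 63416875 assigned reads. Pairwise correlations across genes ran from 0.9865 to 0.9917, so no library stood apart by that measure. In single genes WT4 did stand apart within WT, as described below for Plin5 and Hsd17b7. Pgr itself, on chromosome 9, ran from 16.8 to 31.0 counts-per-million (CPM) in WT and from 6.13 to 7.56 CPM in KO, without overlap, and edgeR gave a log2 fold change of −1.72 ± 0.202 (SE; adjusted p = 0.0544).

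A lipid droplet is a core of triglyceride and sterol ester under a single layer of phospholipid, and the proteins on that layer decide how the core is filled and emptied. Perilipins coat the droplet and gate the access of lipases, CIDE proteins pass lipid from small droplets to large ones, and HILPDA restrains the lipase ATGL. In the ovary, the steroid-making theca, interstitial and luteal cells keep cholesteryl ester droplets as a store for steroid synthesis. Plin1 and Cidec are best known from adipocytes, Plin2 and Plin3 from nearly every tissue, Plin4 from white fat and muscle, and Plin5 from tissues that burn fatty acid such as heart, muscle and brown fat.

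The genes of 3 perilipins lie close together on chromosome 17, all on the minus strand of GRCm39. Plin4 spans 17:56406617-56416931, Plin5 spans 17:56418446-56424610 and Plin3 spans 17:56584218-56599873. The annotated ends of Plin4 and Plin5 are 1514 bases apart, and Plin5 and Plin3 are 159607 bases apart. Plin4 is set apart within the family by a long run of 33-codon repeats, each 99 bases, in its exon 5, which is 3958 bases long. The annotation lists Plin4-202 and Plin4-201, which differ by 594 bases of that exon, or 6 whole repeat units, at 17:56412502-56413095. The first 3 of those 6 units are shown because this stretch is what tells the transcripts apart. They are coding sequence in the sense of the gene, 5′ to 3′, and capitals mark each base that differs from unit 1.
Plin4 repeat unit 1: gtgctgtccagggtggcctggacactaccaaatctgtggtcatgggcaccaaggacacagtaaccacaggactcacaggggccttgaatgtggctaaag
Plin4 repeat unit 2: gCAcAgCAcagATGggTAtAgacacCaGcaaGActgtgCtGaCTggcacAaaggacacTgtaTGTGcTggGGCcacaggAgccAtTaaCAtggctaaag
Plin4 repeat unit 3: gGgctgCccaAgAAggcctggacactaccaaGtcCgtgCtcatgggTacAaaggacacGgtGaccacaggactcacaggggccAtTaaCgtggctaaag
Unit 2 differed from unit 1 at 34 of 99 bases and unit 3 at 15. Over the whole exon, 32 successive units, 3168 bases in all, were each at least 60% identical to the next, with the highest identity at 99%. A 100-base read that falls inside this run can match more than one unit, so the division of Plin4 reads between its 2 transcripts is uncertain. The summed reads of the gene do not depend on that division. Summed values corrected for transcript length do depend on it to some degree, because the 2 transcripts differ in length.

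The 250 bases before the outermost annotated start of Plin4, Plin5 and Plin3 are given next, because the first 2 genes had lower mean levels in KO, without passing the test over all genes, and the third, on the same chromosome, had nearly equal means. The search covered both strands for the palindromic progesterone response element, its half-site TGTTCT, the PPAR direct repeat with a spacer of 1 base and the hypoxia response core ACGTG, and capitals mark a match. The palindromic element was searched as 2 inverted arms around 3 free bases, with 1 base left free in each arm, so it can overlap a half-site.
Plin4, 17:56416932-56417181, minus strand: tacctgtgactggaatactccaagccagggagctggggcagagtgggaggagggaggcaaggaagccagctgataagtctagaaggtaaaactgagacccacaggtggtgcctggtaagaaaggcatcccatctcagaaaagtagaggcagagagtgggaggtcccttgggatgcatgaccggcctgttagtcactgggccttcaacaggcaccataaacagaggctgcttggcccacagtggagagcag
Plin5, 17:56424611-56424860, minus strand: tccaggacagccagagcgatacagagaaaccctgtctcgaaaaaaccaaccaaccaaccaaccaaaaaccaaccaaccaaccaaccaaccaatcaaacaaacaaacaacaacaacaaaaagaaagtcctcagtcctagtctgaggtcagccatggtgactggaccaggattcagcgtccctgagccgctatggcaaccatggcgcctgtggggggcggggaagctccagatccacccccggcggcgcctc
Plin3, 17:56599874-56600123, minus strand: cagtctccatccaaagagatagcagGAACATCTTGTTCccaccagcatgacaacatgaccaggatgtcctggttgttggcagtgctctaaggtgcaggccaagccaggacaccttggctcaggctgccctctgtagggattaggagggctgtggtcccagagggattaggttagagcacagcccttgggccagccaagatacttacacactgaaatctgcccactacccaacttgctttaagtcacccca
None of the 4 motifs was in these windows of Plin4 and Plin5, nor in those of Plin1, Hilpda, Cidea and Cidec. The Plin3 window held one full palindromic element at 17:56600086-56600098, a motif found in 0.308% of the 21757 windows of protein-coding genes. That match lies before the start of the minor transcript Plin3-202, which took at most 0.224% of Plin3 reads in any library, and 2541 bases before the start of Plin3-201, which took the rest. The Plin2 window held ACGTG 224 bases before the start, as did 16.4% of windows somewhere, and the Cideb window held TGTTCT 6 bases before the start, a half-site present in 15.5%. The PPAR repeat was in 0.322% of windows. These are letter matches in short windows, and binding was not measured here.

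On a scale corrected for transcript length (transcripts-per-million, TPM), Plin2 was the most abundant of the 9 genes in every library of both genotypes. In WT it averaged 58.4 ± 5.81 TPM (SD, n = 4), followed by Plin4 at 36.5 ± 14.7, Hilpda at 24.0 ± 1.71, Plin3 at 21.9 ± 2.87, Plin1 at 21.9 ± 5.31 and Plin5 at 14.6 ± 10.2 TPM. The ranges of neighbours from Plin4 to Plin5 in that order overlapped across WT libraries, so among these 6 genes only the first place of Plin2 was clear of the spread. In KO, Plin2 averaged 67.5 ± 3.19 TPM (SD, n = 3), then Hilpda 28.4 ± 8.31, Plin1 27.4 ± 1.92, Plin3 22 ± 2.17, Plin4 12.1 ± 7.79 and Plin5 5.25 ± 1.59 TPM. Plin1 was above Plin3 in all 3 KO libraries without overlap of their ranges, while the other neighbours below Plin2 overlapped. Plin4 stood at place 2 in WT and at place 5 in KO by mean TPM. The 3 CIDE genes reached at most 0.36 TPM in any library.

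**Figure D1:**
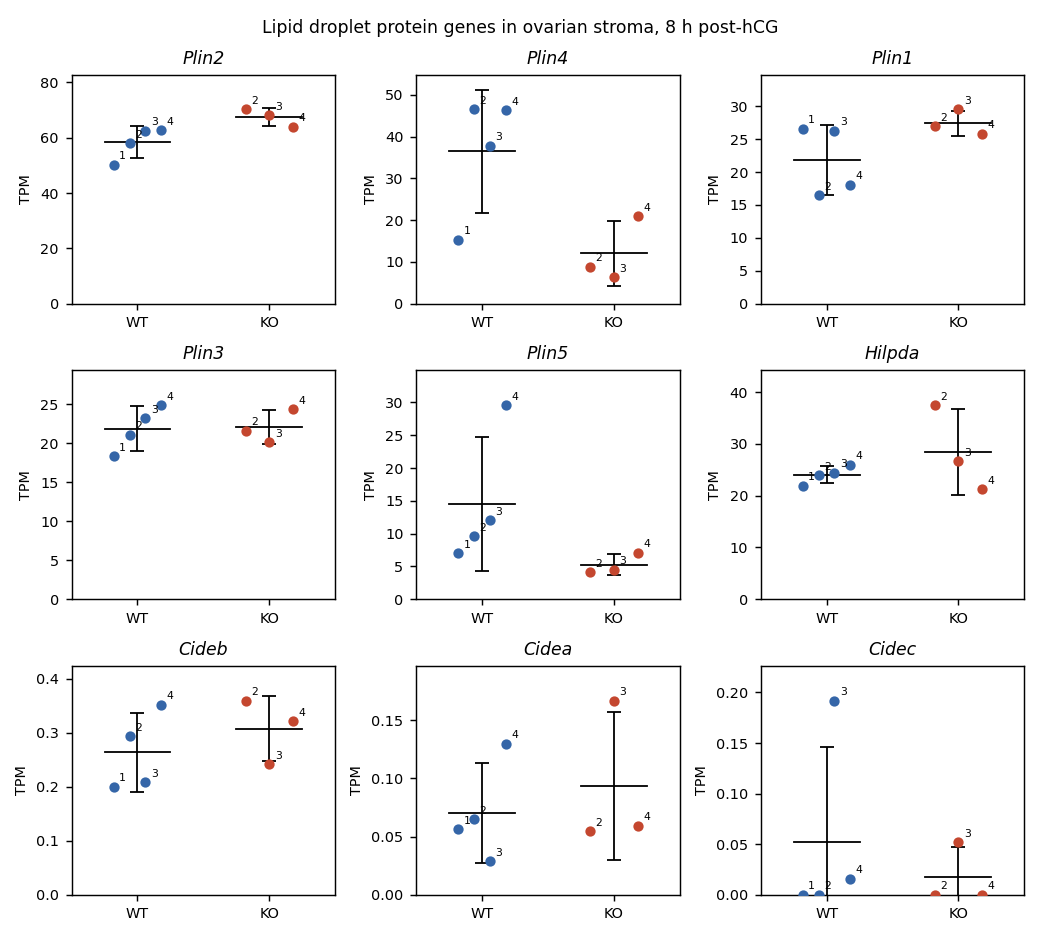
Each panel shows 1 gene in TPM on an axis from 0, with a point per library labelled by its replicate number, blue for the 4 WT and red for the 3 KO libraries, and black bars for the mean ± SD (cut at 0 for Cidec). Plin4 and Plin5 sit lower in KO with an overlap of 1 library each on this scale, Plin2 sits slightly higher, and the CIDE genes are near 0.

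Plin4, a droplet coat protein of fat and muscle, was the perilipin with the largest difference between genotypes. WT1, WT2, WT3 and WT4 held 68.3, 187, 154 and 187 CPM, and KO2, KO3 and KO4 held 36.4, 26.2 and 80.4 CPM. The KO mean of 47.6 ± 28.8 CPM was 31.9% of the WT mean of 149 ± 56.1 CPM. WT1 was low for its group and KO4 high for its own, and those 2 libraries crossed, so the groups overlapped. The edgeR log2 fold change was −1.64 ± 0.441 (SE), with a 95% confidence interval of −2.64 to −0.64, an unadjusted p of 0.00484 and an adjusted p over all genes of 0.318. An exact two-sided permutation test over the 7 libraries, whose smallest p is 0.0286, gave p = 0.0857. Leaving out single libraries moved the log2 value from −2.25, without KO4, to −1.35, without KO3. Of all genes tested, 32 had a lower fold change than Plin4. Depth was not a limit for this gene, which drew 1255 to 11646 reads per library.

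Plin5, the perilipin that ties droplets to mitochondria, was next. It held 9.32, 11.4, 14.4 and 35.6 CPM in WT1 to WT4, and 5.12, 5.48 and 8.00 CPM in KO2, KO3 and KO4. No KO library reached the lowest WT library on the CPM scale, which was true in that direction of 5.12% of genes tested, and WT4 stood well above the other WT libraries. In TPM the lowest WT library, WT1 at 7.04, fell just under the highest KO library, KO4 at 7.07, so the separation did not hold on both scales. The KO mean of 6.20 ± 1.57 CPM was 35% of the WT mean of 17.7 ± 12.1 CPM. The log2 fold change was −1.51 ± 0.451 (SE; 95% confidence interval −2.54 to −0.49), with an unadjusted p of 0.00861, an adjusted p of 0.36 in edgeR and p = 0.0571 in the exact permutation test. WT4 carried a large part of this value, which was −0.91 with an adjusted p of 0.274 when WT4 was left out.

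No gene of the 9 met the call rule, which asks for an adjusted p of 0.05 or less and a log2 difference of 0.5 or more in either direction. The whole table gave few calls by that rule in edgeR, 2 genes or 0.0104% of those tested. DESeq2 called 144 genes, 0.829% of the 17364 with an adjusted p, and again none of the 9, with adjusted p of 0.0972 for Plin4 and 0.183 for Plin5. The paper also used DESeq2 at the same thresholds, with a further step that dropped genes by their GC values relative to stroma. It reported Plin4 as a stromal gene lower in KO. In DESeq2 here the log2 fold change of Plin4, −1.64, had the same direction, but its adjusted p did not pass. The source of that difference was not tested. At an unadjusted p under 0.05, 2 of the 7 tested genes were lower in KO, Plin4 and Plin5, and 0 were higher, against 5.1% of all genes lower and 3.84% higher. DESeq2 and limma-voom also gave 2 of 7 at an unadjusted p under 0.05, and edgeR with the replicate number as a block gave 3, the third being Plin1, higher in KO. The 5.1% and 3.84% belong to the main edgeR fit. Shares of all genes in those other fits were not counted, so their counts have no background beside them. None of the 7 lay above all WT libraries in CPM, an arrangement seen in 3.93% of genes.

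**Figure D2:**
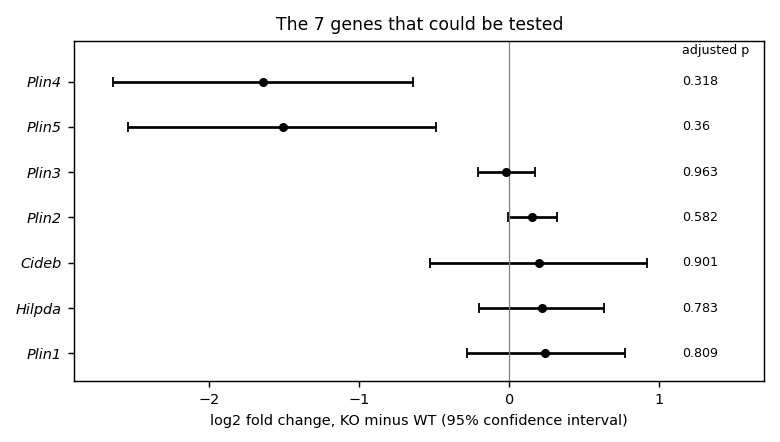
Points give the edgeR log2 fold change (KO minus WT) of the 7 tested genes and bars the 95% confidence interval, with adjusted p over all genes at the right. Plin4 at −1.64 and Plin5 at −1.51 are the only ones whose interval leaves out 0, while the intervals of Plin3 and Plin2 are the narrowest.

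Both genes also varied more among libraries of one genotype than most genes did. The highest library exceeded the lowest 2.74-fold for Plin4 within WT and 3.07-fold within KO, where the median gene tested reached 1.25-fold and 1.19-fold. For Plin5 these ratios were 3.82 within WT and 1.56 within KO. Across all 7 libraries the range was 7.16-fold for Plin4 and 6.95-fold for Plin5, and 98.4% of genes had a smaller range than either. The high libraries were shared only in part, since WT2, WT3 and WT4 were high for Plin4 while WT4 alone was high for Plin5. In both genes WT1 was the lowest WT library and KO4 the highest KO library. The TPM ratio of Plin4 to Plin5 accordingly ran from 1.56 to 4.85 in WT and from 1.41 to 2.96 in KO.

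The 2 Plin4 transcripts were both present. Plin4-202, the longer form at 6350 bases, took 79.2 to 87.0% of Plin4 reads in WT and 65.7, 87.0 and 87.2% in KO2, KO3 and KO4. It measured 11.9, 39.9, 32.1 and 37.5 TPM in WT and 5.64, 5.47 and 18 TPM in KO, with the same overlap of WT1 and KO4 as the gene. Plin4-201, which lacks the 6 repeat units shown above, measured 3.45, 6.58, 5.71 and 8.77 TPM in WT and 3.26, 0.903 and 2.93 TPM in KO, every KO value below every WT value. KO2 gave the shorter form its highest share, 34.3%, within the uncertainty that the repeats bring to this split. Plin5-201 and Plin5-202, which use starts 57 bases apart, were both lower in KO by mean, Plin5-201 from 9.11 to 3.31 TPM and Plin5-202 from 5.46 to 1.95 TPM. Only Plin5-201 separated the genotypes without overlap, at 4.25 to 18.4 TPM in WT and 2.82 to 3.72 TPM in KO. Both Plin5 transcripts are 1986 bases long and share their other end, so the division of reads between them is uncertain too. Plin5 as a gene overlapped in TPM. The share of all transcripts that separate as Plin4-201 and Plin5-201 did was not counted.

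The genes around Plin4 and Plin5 showed no difference of that size. Between and beside the 3 perilipins on chromosome 17 the annotation holds 9 other protein-coding genes, of which 8 were tested, and their log2 fold changes ran from −0.27 to 0.13. Only Tnfaip8l1, at −0.27, had an unadjusted p under 0.05, and its adjusted p in edgeR was 0.472. Lrg1, which follows Plin5, ranged from 11.0 to 14.6 CPM in WT and from 12.5 to 17.1 CPM in KO. Hdgfl2 matters for another reason, as it overlaps Plin4 by 4193 bases on the opposite strand, and reads of the overlap could be confused if strand were ignored. It held 99.1 to 108 CPM in WT and 99.4 to 114 CPM in KO, a log2 fold change of 0.05 ± 0.0619 (SE). The libraries were made with a stranded kit, but whether strand was used when reads were assigned is not given in the sources used here. Arrdc5, next to Plin3, had at most 3 reads in a library and was not tested.

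**Figure D3:**
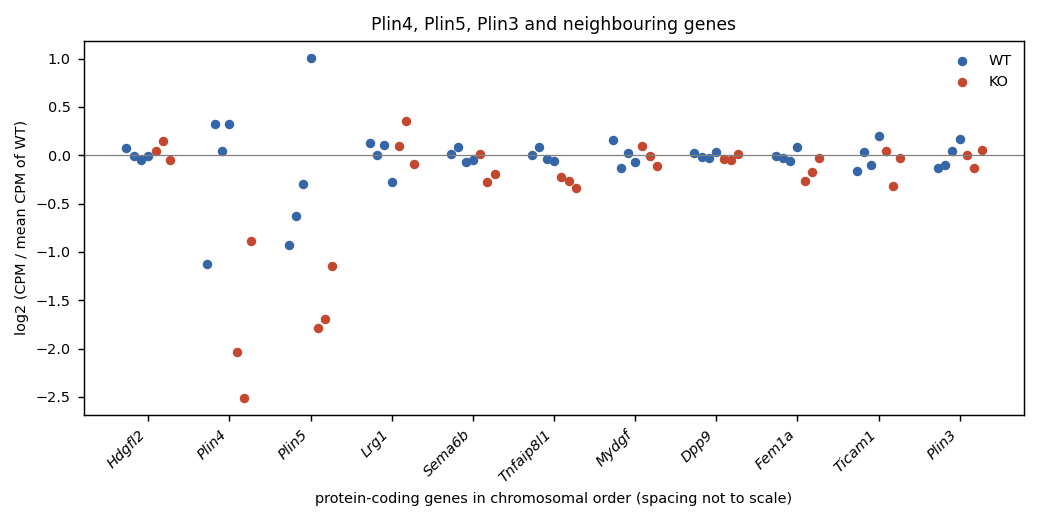
The vertical axis gives log2 of CPM over the WT mean of each gene, the horizontal axis lists the tested protein-coding genes in chromosomal order, and each point is a library (blue WT, red KO). Plin4 and Plin5 spread over several log2 units, while the 8 other genes and Plin3 stay close to 0.

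Plin2, the general droplet coat protein of non-adipose cells, moved little and in the other direction. It held 59.2, 60.5, 65.4 and 65.9 CPM in WT1 to WT4 and 74.8, 72.0 and 62.7 CPM in KO2, KO3 and KO4. KO2 and KO3 were above all WT libraries and KO4 lay within them. The log2 fold change was 0.15 ± 0.074 (SE), with a 95% confidence interval of −0.01 to 0.32, an adjusted p of 0.582 in edgeR and p = 0.143 in the exact permutation test. In TPM, every KO library (64.0 to 70.2) lay above every WT library (50.3 to 62.7), so the arrangement depended on the scale. The share of all genes that separate in TPM was not counted. Plin2 was among the steadier genes, with a range of 1.26-fold over the 7 libraries, and its interval leaves room for an increase in KO of at most 0.32 on the log2 scale.

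Plin3, a coat protein that moves between cytosol and newly forming droplets, was the flattest. It held 46.7, 47.8, 52.8 and 57.7 CPM in WT and 51.3, 46.9 and 53.1 CPM in KO, with the KO libraries inside or at the edge of the WT range. The log2 fold change was −0.02 ± 0.0839 (SE; 95% confidence interval −0.21 to 0.17), with an adjusted p of 0.963 in edgeR. Against this flat neighbour, Plin4 TPM was 0.839, 2.20, 1.62 and 1.86 times that of Plin3 in WT1 to WT4 and 0.412, 0.317 and 0.860 times in KO2, KO3 and KO4. Plin4 exceeded Plin3 in 3 of 4 WT and in 0 of 3 KO libraries, although WT1 and KO4 were nearly equal.

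Plin1, the adipocyte coat protein that holds back lipase until it is phosphorylated, was well expressed in this tissue. It held 39.3, 19.9, 34.3 and 20.6 CPM in WT1 to WT4 and 33.9, 37.0 and 30.3 CPM in KO2, KO3 and KO4. WT fell into a higher and a lower pair, and all KO libraries lay between the WT extremes. The log2 fold change was 0.24 ± 0.232 (SE; 95% confidence interval −0.28 to 0.77), with an adjusted p of 0.809 in edgeR. Leaving out single libraries moved it between 0.10, without WT2, and 0.44, without WT1. Its main transcript, Plin1-206, took 69.1 to 77.7% of its reads.

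The make-up of the perilipin pool followed from these values. Summed TPM of the 5 genes was 118, 152, 162 and 182 in WT1 to WT4 and 132, 129 and 142 in KO2, KO3 and KO4, so the totals overlapped. Plin2 made up 34.5 to 42.8% of the sum in WT and 45 to 53.3% in KO, a share that was higher in every KO library. Plin4 made up 13.1, 30.6, 23.3 and 25.5% in WT and 6.75, 4.95 and 14.7% in KO, overlapping again through WT1 and KO4. Plin5 made up 5.98 to 16.3% in WT and 3.15 to 4.97% in KO, lower in every KO library. Shares of a fixed sum depend on one another, so a lower Plin4 share raises the others without any change in them. Plin3 kept 13.7 to 15.6% in WT and 15.6 to 17.1% in KO.

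**Figure D4:**
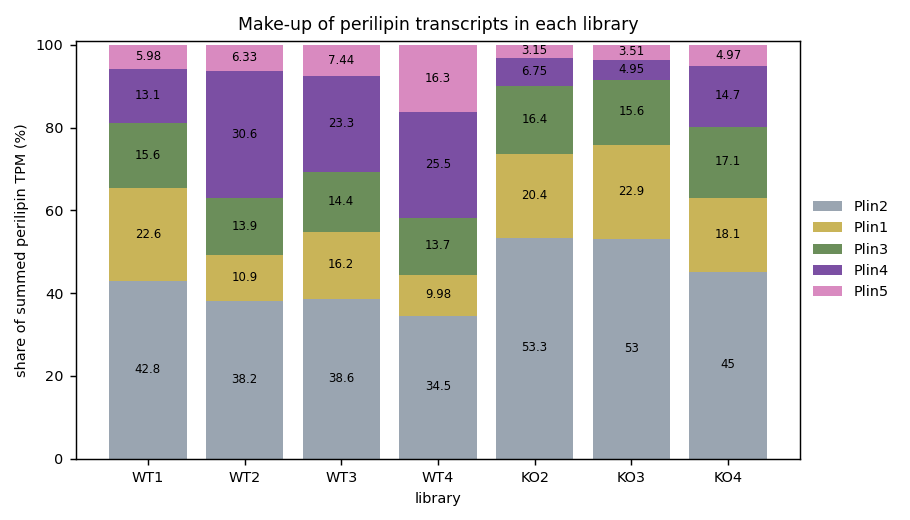
Stacked bars give the share of each perilipin in the summed perilipin TPM of 1 library, in percent, for WT1 to WT4 and KO2 to KO4. The Plin4 and Plin5 segments together take the least in KO2 and KO3, and the Plin4 segment of WT1 (13.1%) is closest to that of KO4 (14.7%).

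Hilpda, a small droplet protein induced by hypoxia and fatty acids, held 12.7, 12.5, 12.7 and 13.8 CPM in WT1 to WT4 and 20.3, 14.2 and 10.5 CPM in KO2, KO3 and KO4. WT libraries were close together, whereas the KO libraries spanned both sides of them. The log2 fold change was 0.22 ± 0.185 (SE; 95% confidence interval −0.20 to 0.63), with an adjusted p of 0.783 in edgeR and p = 0.629 in the exact permutation test. The sign rested on KO2, since the value was −0.07 without it, and it was 0.42 without KO4.

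The CIDE genes were close to the limit of detection. Cideb, the liver and intestine member that loads lipoproteins with lipid, had 7, 10, 8 and 15 reads in WT and 14, 8 and 12 in KO, and its log2 fold change was 0.20 ± 0.32 (SE; adjusted p = 0.901 in edgeR). Its 95% confidence interval of −0.53 to 0.92 is too wide to show a change of moderate size at this depth. Cidea, known from brown fat, had 2, 2, 1 and 5 reads in WT and 2, 5 and 2 in KO. Cidec, which makes the single large droplet of white adipocytes, had 0, 0, 11 and 1 reads in WT and 0, 1 and 0 in KO. A count of 0 allows up to 3 reads by a one-sided limit, or 0.0524 to 0.0599 CPM in the 4 libraries without a Cidec read, and the 11 reads of WT3 have an exact two-sided Poisson 95% interval of 5.49 to 19.7 reads. These limits cover counting error only.

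Because Plin1, Plin4 and Cidec are also adipocyte genes, fat attached to the ovary was checked with 15 adipocyte markers. Of these, 7 stayed under 0.5 TPM in every library, among them Adipoq (adiponectin), Lep (leptin), Adrb3, Lgals12 and Ucp1, and Lep was listed at 0 in all but WT3, which had 0.0177 CPM. Summed TPM of the 15 markers ran from 114 to 191 in WT and from 93.3 to 154 in KO, and most of it was Nnat, a gene of neurons and endocrine cells as well. WT3 alone held traces above the rest, with Adipoq at 0.355 CPM against 0.0322 to 0.0834 elsewhere, Cfd at 1.44, Car3 at 2.47 and Cidec at 0.195 CPM. Plin4, Plin5 and Plin1 had their highest CPM in a library other than WT3, and without WT3 the log2 fold change was −1.63 for Plin4 and −1.60 for Plin5. Of the 10 adipocyte markers tested, 8 were lower in KO by sign and 1, Thrsp at −0.42, had an unadjusted p under 0.05. For the others tested, the log2 fold changes were −0.14 for Retn, −2.10 for Cfd, −0.28 for Slc2a4, −1.48 for Car3, 0.41 for Lgals12, −0.16 for Aqp7, 0.08 for Cdo1, −0.58 for Acvr1c and −0.34 for Nnat. Adipoq, Lep, Adrb3, Tshr and Ucp1 were too low to test. The part of attached fat in the Plin4 and Plin5 values was not tested.

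**Figure D5:**
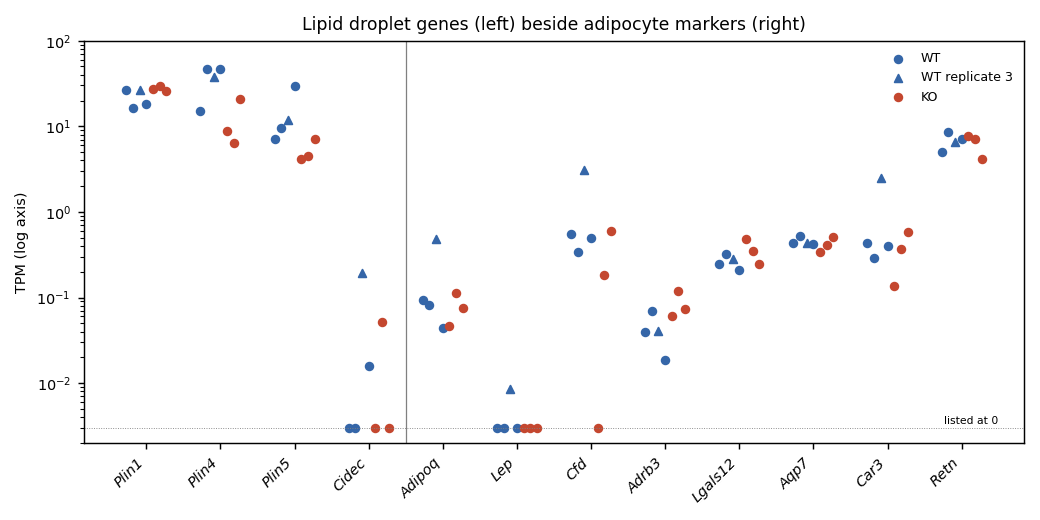
The vertical log axis gives TPM per library, with 4 of the lipid droplet genes left of the line and 8 adipocyte markers right of it, blue for WT, a triangle for WT3 and red for KO, and values listed at 0 on the dotted line. Plin1, Plin4 and Plin5 lie above 4 TPM in every library while Adipoq and Lep stay under 0.5 TPM, with WT3 the highest for Cidec, Adipoq, Cfd and Car3.

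Markers of other cells in this tissue were compared in the same way, since fewer cells of a type and less RNA per cell cannot be told apart in bulk samples, and their counts stand against the same 5.1% lower and 3.84% higher over all genes. All 10 theca and steroidogenic markers tested were lower in KO by sign, 2 at an unadjusted p under 0.05 (Star and Aldh1a1), and their summed TPM was 11400 to 15600 in WT and 10600 to 12600 in KO. The 12 smooth and striated muscle markers tested summed to 1640 to 1970 TPM in WT and 1170 to 1590 in KO without overlap, with 5 of them, led by Des at −0.78, at an unadjusted p under 0.05. The striated muscle genes Myh1, Myh4, Acta1 and Ckm were under 0.5 TPM in all libraries. Myl1 and Tnnt3, also of striated muscle, ran from 0.116 to 0.769 TPM and from 0.855 to 1.61 TPM. Oocyte markers went the other way, as did Plin2, with 10 of 10 higher in KO by sign, 5 at an unadjusted p under 0.05 and sums of 295 to 420 TPM in WT and 390 to 534 in KO. Granulosa and macrophage markers, 12 tested of each, gave 0 at an unadjusted p under 0.05, and endothelial markers gave 2 of 10, Cdh5 and Tek, both lower. Granulosa markers summed to 2530 to 3500 TPM in WT and 3180 to 4220 in KO, so GC RNA remained after puncture, and macrophage (221 to 260 and 218 to 298) and endothelial sums (443 to 493 and 434 to 470) overlapped too. No marker of these lists was called by edgeR, and the part of cell make-up in the values of Plin4, Plin5 and Plin2 was not tested.

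The genes most like Plin4 across the 7 libraries, by Pearson correlation of log2 CPM among 14883 genes with a mean of at least 1 CPM, included Nrxn2 (0.981), Scd3 (0.980), 1110002E22Rik (0.979), Paqr7 (0.978), Gm14399 (0.978), Zfp469 (0.976) and Ptgs1 (0.975). The libraries are few and differ in genotype, and with so many genes compared these values are a description. Scd3, a stearoyl-CoA desaturase, followed the crossing of WT1 and KO4 closely, at 1.83, 3.74, 3.25 and 3.60 CPM in WT and 1.46, 1.40 and 2.54 CPM in KO. Paqr7, a membrane progestin receptor, followed it with a much smaller amplitude, from 61.0 to 79.0 CPM. Plin5 ranked 541st in likeness to Plin4 with a correlation of 0.838, and 0.606 after the genotype means were taken out. Plin1 ran opposite to Plin4, at −0.725.
For Plin2 the nearest genes were Mapk13 (0.981), Rfpl4 (0.978), Pin1rt1 (0.968), Gin1 (0.965), Sall4 (0.961), Coprs (0.956), Apbb1ip (0.949) and Fbrsl1 (0.949). Rfpl4, an oocyte gene, held 6.32 to 7.68 CPM in WT and 10.9, 10.7 and 7.28 CPM in KO. Sall4, found in germ cells, held 1.11 to 1.53 CPM in WT and 2.40, 2.48 and 1.14 CPM in KO. Both were high in the same KO2 and KO3 libraries as Plin2. The pattern was not limited to these 2 genes, since Mapk13 held 5.78 to 7.06 CPM in WT and 8.95, 8.63 and 6.40 CPM in KO. Hilpda had a correlation of 0.779 with Plin2.

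In all, 6 lists of lipid droplet and regulator genes outside the 9 put these values in context. Of 133 such genes tested, 16 were lower and 5 higher in KO at an unadjusted p under 0.05, which is 12.0% and 3.76% beside 5.1% and 3.84% of all genes, their median log2 fold change was −0.03 beside 0.00 for all genes, and edgeR called none. The lists were chosen with earlier results of these libraries in view, so this is a description. In the lipolysis list, 1 of 12 was lower and 1 higher. Mgll, the lipase of monoglycerides, averaged 54.4 CPM in WT and 45.2 in KO (log2 fold change −0.27, adjusted p = 0.19 in edgeR), and Pnpla6, a phospholipase, averaged 43.5 and 50.1 CPM (0.20, adjusted p = 0.303). The lipase that perilipins guard most directly, Pnpla2 (ATGL), had a log2 fold change of −0.11, its activator Abhd5 0.01, its inhibitor G0s2 0.33 with an unadjusted p of 0.0713, and hormone-sensitive lipase, Lipe, 0.05.

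In the list of triglyceride and sterol ester synthesis, 3 of 19 were lower at an unadjusted p under 0.05 and 0 higher. Soat1, which makes the cholesteryl ester of steroidogenic droplets, held 666, 720, 731 and 765 CPM in WT and 556, 528 and 568 CPM in KO without overlap, a log2 fold change of −0.39 ± 0.0693 (SE) with an adjusted p of 0.162 in edgeR. Gpam, the first acyltransferase of glycerolipid synthesis, was at −0.25 and Dgat1, the last, at −0.18. Among droplet formation and other coat proteins, 6 of 38 were lower and 1 higher by the same measure. The lower ones included the droplet-bound Hsd17b11 (−0.76, adjusted p = 0.245 in edgeR), Hsd17b7 (−1.04, adjusted p = 0.305) and the sterol synthesis enzymes Sqle, Lss and Nsdhl (−0.39 each). Hspa8, a general chaperone that is also in this list, was the higher one at 0.41. Hsd17b7 shared with Plin5 its highest library, WT4 at 701 CPM against 329 to 451 CPM in the other WT libraries and 193 to 313 CPM in KO. Bscl2 (seipin) at 0.09 and Fitm2 at −0.09, which build new droplets, differed little.

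Of 21 PPAR receptors and other regulators tested, 3 were lower and 1 higher at an unadjusted p under 0.05. Pparg is the receptor that drives perilipin genes in fat. It held 23.9, 35.4, 27.0 and 37.8 CPM in WT and 18.2, 19.7 and 23.6 CPM in KO. All KO values lay below the WT ones in CPM, as for 5.12% of genes tested. In TPM the groups overlapped, with KO4 at 22.7 and WT1 at 19.4. The edgeR log2 fold change of Pparg was −0.60 (adjusted p = 0.33). Its correlation with Plin4 over the 7 libraries was 0.927, which ranked 106th, and 0.808 after the genotype means were taken out. Klf15 was at −0.53 (adjusted p = 0.111), Epas1 at −0.30 and Nr1h2 at 0.14, while Ppara was at −0.03 and Hif1a at 0.09. Among 23 PPAR targets outside the droplet, Fabp4 (−0.43) and Fabp3 (−0.38), both fatty acid carriers, were lower and Acot2 (0.20) higher at an unadjusted p under 0.05. The other targets did not pass at that unadjusted p, and their fold changes varied. Angptl4 was at 0.00, Pdk4 at 0.05, Cd36 at −0.09 and Lpl at 0.06. Further from 0 were Vnn1 at −0.69, with 15.0 to 224 CPM within WT, Cpt1b at 0.53, Ucp3 at −0.39 and Creb3l3 at 0.28. Of 20 hypoxia-induced genes, Egln3 (0.61) was higher and Pfkfb4 (−0.58) lower by that measure, and Vegfa was at 0.08, beside 0.22 for Hilpda.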

How the data were processed

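Polyadenylated RNA from 7 GC-depleted ovary pools was sequenced as 100-base pairs after stranded library preparation. The authors quantified reads per transcript with Salmon (version not given in the sources used here) against the GENCODE M26 mouse transcriptome of GRCm39, per the labels, and the deposited files give the estimated count (NumReads), TPM, length and effective length of each transcript. From these, 137570 of 139225 transcripts (98.8%), holding over 99% of reads, were matched by identifier to GENCODE genes of GRCm39. The deposited TPM values were summed per gene without change, and the deposited estimated counts were summed per gene and rounded to whole numbers. Genes passing edgeR's filterByExpr (19233) were fitted in R 4.3.3 with edgeR 4.0.16 (TMM, glmQLFit and glmQLFTest, two-sided, Benjamini-Hochberg over all genes tested), with 4 WT and 3 KO libraries and no covariate. A call needed an adjusted p of 0.05 or less together with a log2 difference of 0.5 or more, up or down. CPM values used TMM-scaled library sizes, while the limits for a count of 0 used unscaled reads in genes. Fold changes and standard errors are edgeR's on the log2 scale, and exact permutation tests compared mean log2 CPM over all 35 divisions of 7 libraries into 4 and 3.

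Alternatives were DESeq2 1.42.0, limma-voom (limma 3.58.1), median-of-ratios scaling, 2 other count filters, offsets for transcript length, limma on log2(TPM + 0.1) and log2(TPM + 1), a replicate block, and leaving out each library. The study used DESeq2, which is an alternative here. Sequence windows came from the GRCm39 genome sequence with GENCODE annotation, 250 bases before each gene's outermost start. The 9 genes and all gene lists were chosen with earlier results of these data known. Genes were named by rule: the 9 genes, Pgr, up to 6 genes per list with the lowest unadjusted p under 0.05, all adipocyte markers, the chromosome 17 neighbours, and the 8 genes most like Plin4 and Plin2, of which 1 is not reported here. Pathway genes that did not pass (such as Pnpla2, Ppara and Vegfa) were named for their role, after their values were seen. The striated muscle markers were named for their low level, and Vnn1, Cpt1b, Ucp3 and Creb3l3 for fold changes further from 0. Each library is a pool of 3 mice, and p-values measure the spread between pools.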

Additional observations from a re-analysis of the deposited data

Results flagged for a closer look

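In WT, 2 values stood apart from the other 3 libraries by more than the Dixon limit for groups of 4, which chance passes in about 1 of 20 groups. Cidec was at 0.195 CPM in WT3 and at most 0.0161 CPM in the others, a gap of 0.918 of the group's range. The same library held the traces of Adipoq, Cfd and Car3 described above, and whether they share a source was not tested. Hilpda was at 13.8 CPM in WT4 and 12.5 to 12.7 CPM in the others, a gap of 0.836 of a range that is itself narrow. The 3 KO libraries are too few for this rule, which therefore passes over the high Hilpda value of KO2 and the high Plin4 value of KO4.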

How the results depend on the processing

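None of the 9 genes was called under any of 16 alternatives, and 120 of 125 refits of a single gene kept its direction. The 5 that turned were Plin3, at 0.01 in limma on log2(TPM + 0.1) and on log2(TPM + 1) and from −0.06 to 0.05 when single libraries were left out, and Hilpda, from −0.07 to 0.42 when single libraries were left out. Plin4 stayed between −2.25 and −1.35 (lowest adjusted p 0.0827) and Plin5 between −1.74 and −0.91 (lowest adjusted p 0.0777) over 18 alternatives. Those lowest values came from the replicate block in replicates 2 to 4, with log2 fold changes of −2.03 and −1.58. The numbers are not known to pair the pools. Deviations from the group means correlated at −0.017, 0.277 and 0.117 for same-numbered libraries. For WT and KO libraries of different numbers they correlated at −0.214 to 0.106. The block called 23 genes, none of them among the 9. Plin1 was at 0.48 under the block, with an adjusted p of 0.254 in edgeR, and at 0.44 without it (adjusted p = 0.583). The same replicates without the block, added after seeing the data, gave −1.87 for Plin4 and −1.72 for Plin5.

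The count of all genes called was the least stable value. It was 2 in edgeR, 144 in DESeq2, 130 in DESeq2 with length offsets, 36 with no filter, 6 with at least 10 counts in every library, and 1 to 4 when single libraries were left out. The cause was not tested. With 3 KO pools, no exact permutation p below 0.0286 is possible. Read numbers limit only the CIDE genes, and Cidea and Cidec have no fold change for that reason.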
